A study of Rattus norvegicus with 8 samples.

Results

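The genes described are 39 complement and coagulation genes, 19 of complement and 20 of coagulation, fibrinolysis and related plasma proteins. Most of their products are made mainly by liver, but Cfd, for example, is made largely by adipocytes. They were chosen by symbol: each non-control probe of the rat array whose gene name in the scanner files equalled one of the 39 symbols was taken, which gave 51 probes, and the brightest probe of a gene stood for it. All 39 genes were well above background on all 8 arrays and were among the 21678 genes tested, of 35834 genes or names measured. The livers came from male Wistar rats given daily gavage. The STL group (STL 5 to STL 8) received butyrate-containing structured lipids at 1.65 g/kg body weight, and the control group (control 1 to control 4) received maltodextrin at 3.0 g/kg, a dose of equal energy. Both groups were put through the resistant hepatocyte protocol of chemical hepatocarcinogenesis, begun 2 weeks into treatment, and were killed at week 8, so the controls are rats under carcinogenesis and not untreated rats. The comparison therefore asks how liver transcripts differed with the lipids during hepatocarcinogenesis. Ages and the lesion content of each sampled piece of liver are not given in the sources used here.

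Complement and coagulation are cascades of plasma proteases that are secreted mostly by hepatocytes as inactive precursors. Complement marks microbes and damaged cells and ends in a pore built from its terminal components, and coagulation ends in thrombin, which turns fibrinogen into fibrin. Many of the genes depend on hepatocyte transcription factors such as HNF4 and C/EBP, and several, among them C3, factor B and the fibrinogen genes, are acute-phase genes that rise in inflammation.

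The arrays carry single-colour signal. Each value is the log2 processed signal of a probe after subtraction of its array's 75th percentile, called normalised log2 signal. The 75th percentile ranged 304 to 489 over the STL arrays, lowest in STL 7, and 467 to 605 over the control arrays. Per array, 54.2% to 62.9% of the probes had signal well above background. Control 1 and control 2 gave near-identical arrays, whose difference was 1.05 times that between repeated spots of a probe on an array, whereas the other 27 pairs of arrays had ratios of 2.09 to 7.19. They were averaged to 1 sample, written control 1+2, which left 4 STL and 3 control samples. Precision is limited by the small number of arrays, and in bulk liver fewer hepatocytes and less RNA per hepatocyte cannot be told apart. Each group had 4 rats by the labels, which leave unstated whether controls 1 and 2 were separate RNA.

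The first sequences shown are the 60-base probes behind the genes with the smallest p-values, followed by the probes of genes whose different probes gave differences of opposite sign. They are printed in lower case with no part marked, and positions are those of the files, in build rn4. The Klkb1 probe lies at chr16:50272009-50272069, plus strand. The Masp2 probe lies at chr5:165695975-165696034, plus strand. The Masp1 probes lie at chr11:79602404-79602463, plus strand (A), chr11:79567956-79568013, plus strand (B) and chr11:79582592-79582651, plus strand (C). The Fga probes lie at chr2:174751982-174752041, plus strand (A) and chr2:174753332-174753391, plus strand (B). Probe A is the brightest in each case.
Klkb1: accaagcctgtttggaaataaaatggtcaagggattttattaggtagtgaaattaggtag
Masp2: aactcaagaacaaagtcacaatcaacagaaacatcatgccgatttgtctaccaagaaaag
Masp1 probe A: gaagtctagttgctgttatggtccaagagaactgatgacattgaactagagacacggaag
Masp1 probe B: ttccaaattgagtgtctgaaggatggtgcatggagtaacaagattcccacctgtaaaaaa
Masp1 probe C: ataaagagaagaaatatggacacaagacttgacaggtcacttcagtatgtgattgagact
Fga probe A: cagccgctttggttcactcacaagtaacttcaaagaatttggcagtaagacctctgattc
Fga probe B: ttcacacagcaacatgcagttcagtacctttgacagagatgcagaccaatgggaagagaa

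The second set shows promoters, because the fibrinogen genes moved together across the livers and factor IX held the matches to both HNF4 and C/EBP letters. Each is the RefSeq window around the gene start in build GRCr8, most of it before the start and the rest after it, on the strand of the gene. Capitals mark letters that match HNF4 (CAAAGTNCA) or C/EBP (TTGCNCAA), read on either strand.
Fga promoter (chr2:170671919-170672218, plus strand): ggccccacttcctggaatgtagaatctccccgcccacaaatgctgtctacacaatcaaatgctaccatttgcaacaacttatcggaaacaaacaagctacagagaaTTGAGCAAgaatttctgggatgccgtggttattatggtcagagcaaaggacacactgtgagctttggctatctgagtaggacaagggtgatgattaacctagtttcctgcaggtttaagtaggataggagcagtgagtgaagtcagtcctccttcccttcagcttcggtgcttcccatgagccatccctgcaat
Fgb promoter (chr2:170700826-170701125, minus strand): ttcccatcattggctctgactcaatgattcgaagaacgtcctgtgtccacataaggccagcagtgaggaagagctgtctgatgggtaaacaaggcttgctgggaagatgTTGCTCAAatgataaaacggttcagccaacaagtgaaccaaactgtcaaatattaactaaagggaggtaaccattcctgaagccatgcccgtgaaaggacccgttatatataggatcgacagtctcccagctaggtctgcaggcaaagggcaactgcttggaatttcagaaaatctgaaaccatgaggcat
Fgg promoter (chr2:170652833-170653132, plus strand): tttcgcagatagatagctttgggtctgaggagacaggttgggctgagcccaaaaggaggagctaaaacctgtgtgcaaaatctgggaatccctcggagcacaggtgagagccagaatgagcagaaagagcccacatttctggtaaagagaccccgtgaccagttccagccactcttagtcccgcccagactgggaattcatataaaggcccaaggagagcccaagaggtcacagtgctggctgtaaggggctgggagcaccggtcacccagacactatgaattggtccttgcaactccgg
F9 promoter (chrX:143388392-143388691, plus strand): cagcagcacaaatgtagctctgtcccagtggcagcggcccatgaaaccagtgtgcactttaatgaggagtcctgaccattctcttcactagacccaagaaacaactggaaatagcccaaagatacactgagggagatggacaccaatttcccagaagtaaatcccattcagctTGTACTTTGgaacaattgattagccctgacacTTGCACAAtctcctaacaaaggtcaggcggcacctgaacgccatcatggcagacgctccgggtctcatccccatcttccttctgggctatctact

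RefSeq promoters were matched for 32 of the 39 genes. The C/EBP letters stood in 6 of these 32 (18.75%), C8b, F9, Fga, Fgb, Kng1 and Kng2, against 2.72% of all 27457 promoters. HNF4 letters were in F9 alone of the 32 (3.13%, against 1.19% of all), and the STAT letters TTCNNNGAA in 9 (28.1%, against 8.68% of all). The NF-kB letters, GGG followed by any 2 bases and TTTCC, were in F10 alone of the 32 (3.13%, against 1.51% of all). These motifs were read on either strand, and these matches describe letters in a fixed window and no binding was measured.

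No complement or coagulation gene passed the test across all genes (limma, adjusted p under 0.05; 0 of 39, where 0.00461% of all genes passed, 1 of 21678). At an unadjusted limma p under 0.05, 3 of the 39 were higher in STL livers, Klkb1, Masp2 and C8g, where 11.6% of all genes were, and 0 were lower, where 7.4% of all genes were. All 4 STL samples lay above all 3 control samples in 4 genes, Masp2, C4bpa, Proc and Kng2, where 11.3% of all genes did. In 0 of the 39 did all STL samples lie below, where 5.63% of all genes did. The count of members with all STL samples above depended on the setting. It was 0 with each array scaled on its median (7.5% of all genes), 1 under quantile normalization (9.07%) and 2 with every array as its own sample (8.22%). It was 11 without STL 6 (17.7% of all genes) and 18 without controls 1 and 2 (22.2%). Without controls 1 and 2, 13 of the 39 were higher and 0 were lower at an unadjusted limma p under 0.05. Over all genes, 4955 of 21678 passed that mark in that setting, in both directions together.

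Most means were on the STL side. The STL mean was the higher in 33 of 39 genes, 14 of 19 complement genes and 19 of 20 coagulation genes, against 58.1% of all genes tested. The median log2 difference, STL minus control, was 0.25 over the complement genes and 0.26 over the coagulation genes, against 0.06 over all genes. With quantile normalization between arrays in place of the 75th percentile, 22 of 39 means were higher, and the medians were 0.05 for complement and 0.02 for coagulation, against 0.02 for all genes. The differences ran from -0.27 in C1s to 0.77 in Klkb1, which is 0.83-fold to 1.71-fold. The 95% intervals of 36 of the 39 genes lay within a 2-fold change in either direction, and those of 7 lay within 0.5 on the log2 scale.

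**Figure D1:**
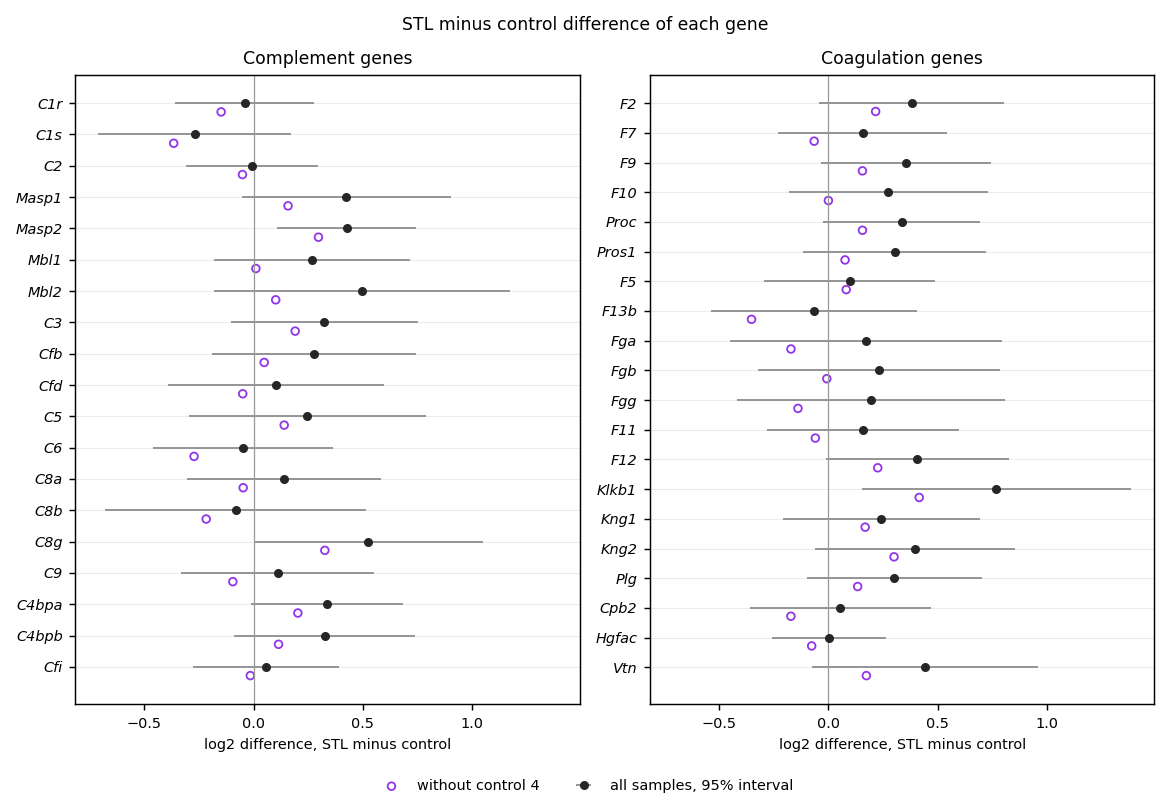
The log2 difference of each gene, STL minus control, is plotted on the horizontal axis, with complement genes on the left and coagulation genes on the right. Filled points with lines are the estimates over all samples with 95% intervals, and open points the estimates without control 4. Filled points lie right of 0 in 33 of 39 genes, and open points in 22.

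The predominance of higher means was also lost without 1 control liver. Control 4 was the lowest of the 7 samples in 32 of the 39 genes, 14 of 19 complement and 18 of 20 coagulation genes, against 30.3% of all genes tested. The control 4 array also had the highest 75th percentile, 605, and the part of array brightness in this rank was not tested. Control 1+2 lay within the range of the STL samples in 27 genes, above all of them in 7 and below all of them in 5. The median over genes of the SD within a group was 0.19 in STL livers and 0.38 in control livers, and the control SD was the wider in 32 of 39 genes. Without control 4, 22 genes had the higher mean in STL livers and 17 the lower (56.2% of all genes were higher), and the medians were 0.0099 for complement and 0.08 for coagulation, against 0.04 for all genes. The 4 genes with all STL samples above and the 3 with all STL samples below the remaining controls stood against 14.9% and 9.98% of all genes. Without controls 1 and 2, the STL mean was the higher in 37 of 39 genes, against 59.5% of all genes. The medians were then 0.41 for complement and 0.42 for coagulation, against 0.09 for all genes.

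**Figure D2:**
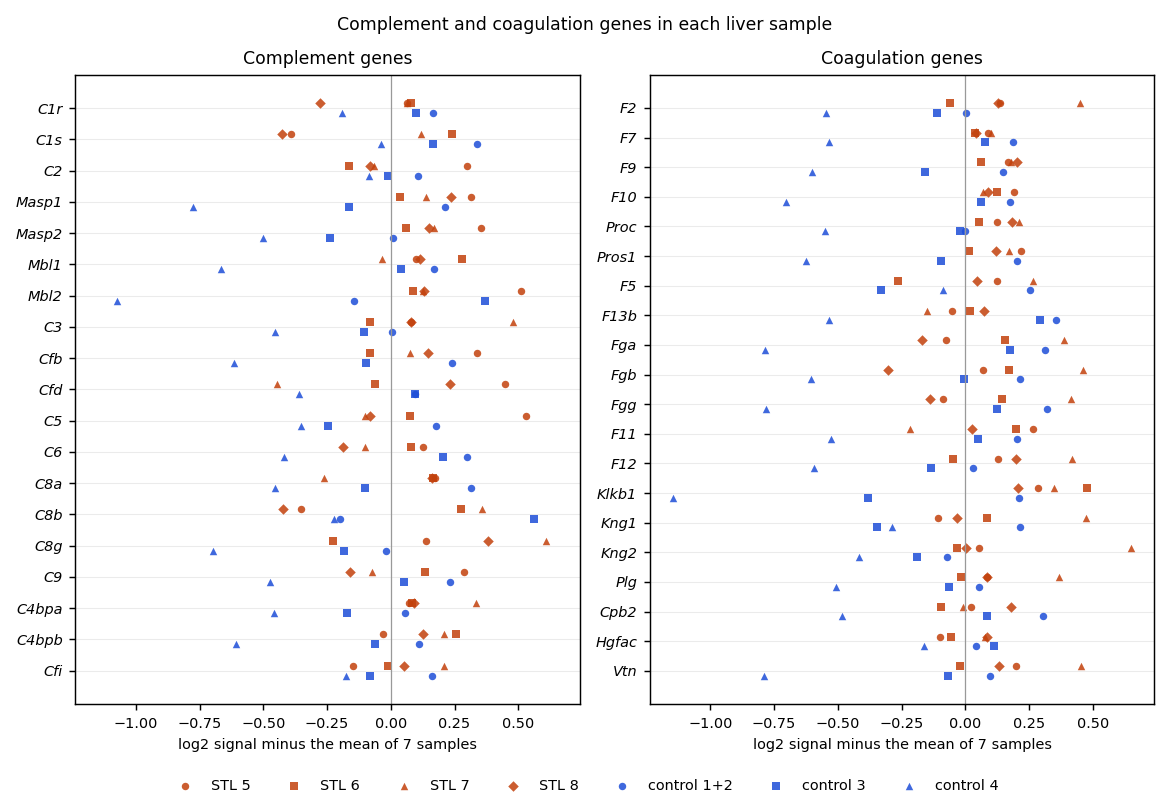
The normalised log2 signal of each gene in each sample, minus that gene's mean over the 7 samples, is on the horizontal axis, with complement genes on the left and coagulation genes on the right. Orange symbols are STL livers and blue symbols control livers, and the blue triangles of control 4 are the lowest symbol in 32 of 39 rows.

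Complement and coagulation genes followed a similar course across the livers. Centred on each gene's mean, the median of the complement genes was 0.14, 0.08, 0.12 and 0.09 in STL 5, 6, 7 and 8, against 0.16, -0.06 and -0.46 in control 1+2, 3 and 4. For the coagulation genes it was 0.11, 0.03, 0.31 and 0.08 in STL 5, 6, 7 and 8, against 0.19, -0.04 and -0.55 in control 1+2, 3 and 4. Both classes were lowest in control 4. Outside it the complement medians lay between -0.06 and 0.16 and the coagulation medians between -0.04 and 0.31. The widest gap between the classes was in STL 7, where the complement median was 0.19 under the coagulation median. STL 7 was the highest sample in all 11 genes with a mean normalised log2 signal of 8 or more. Apart from C3 and Cfi, these were coagulation genes, and the part of probe brightness in the gap was not tested.

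Among the complement recognition proteins and the proteases that cleave C4 and C2, the mannose-binding lectins and their serine proteases had positive differences on their brightest probes, and the C1 proteases did not, except that C1r gave 0.00025 with the values of the series table and also turned sign without control 1+2 or without STL 8. Masp2, the lectin-pathway protease that cleaves C4 and C2, had 3.28, 2.99, 3.10 and 3.08 in STL 5, 6, 7 and 8, against 2.94, 2.69 and 2.43 in control 1+2, 3 and 4. Its groups did not overlap, with control 4 lowest, and the log2 difference was 0.43 ± 0.14 (SE; limma adjusted p = 0.194), a fold of 1.34. Other Masp2 probes gave 0.26 and 0.17. Masp1, the protease that activates Masp2, had 3.62, 3.35, 3.45 and 3.55 in STL 5, 6, 7 and 8, against 3.52, 3.15 and 2.54 in control 1+2, 3 and 4. The groups overlapped through control 1+2, and the log2 difference was 0.42 ± 0.21 (SE; limma adjusted p = 0.303) on probe A, with -0.14 on probe B and 0.046 on probe C. The Masp1 gene gives rise to several products by alternative splicing, and which product each probe reads was not worked out here. Mbl2, the mannose-binding lectin C, had 1.79, 1.37, 1.41 and 1.41 in STL 5, 6, 7 and 8, against 1.14, 1.65 and 0.21 in control 1+2, 3 and 4. Its control values spanned more than its STL values, and the log2 difference was 0.50 ± 0.298 (SE; limma adjusted p = 0.376). A brighter Mbl2 probe, which the files list under another name, is described under other observations. The lectin Mbl1, mannose-binding lectin A, had a log2 difference of 0.27 ± 0.197 (SE; limma adjusted p = 0.466).

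C2, which supplies the protease of the classical and lectin C3 convertase, had 4.26, 3.80, 3.90 and 3.88 in STL 5, 6, 7 and 8, against 4.07, 3.95 and 3.88 in control 1+2, 3 and 4. The groups overlapped throughout, and its difference was -0.0062 ± 0.133 (SE; limma adjusted p = 0.985) on the log2 scale. The 2 proteases of the C1 complex, C1r and C1s, had log2 differences of -0.042 ± 0.139 and -0.27 ± 0.194 (SE; limma adjusted p = 0.887 and 0.457). C1s had the most negative difference of the 39 genes, and its second probe gave -0.29. STL 5 and STL 8 were its lowest samples, under all controls.

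C3, the central component whose cleavage all pathways share, had 9.67, 9.51, 10.08 and 9.67 in STL 5, 6, 7 and 8, against 9.60, 9.49 and 9.14 in control 1+2, 3 and 4. STL 7 was the highest and control 4 the lowest, and the log2 difference was 0.32 ± 0.187 (SE; limma adjusted p = 0.362), or -0.092 under quantile normalization. Cfb, factor B, the protease of the alternative C3 convertase, had 7.63, 7.21, 7.37 and 7.44 in STL 5, 6, 7 and 8, against 7.53, 7.20 and 6.68 in control 1+2, 3 and 4. The groups overlapped, with a log2 difference of 0.28 ± 0.205 (SE; limma adjusted p = 0.469). Cfd, factor D, the protease that cleaves factor B and is made largely by adipocytes, had 2.78, 2.27, 1.88 and 2.56 in STL 5, 6, 7 and 8, against 2.42, 2.42 and 1.97 in control 1+2, 3 and 4, a log2 difference of 0.10 ± 0.218 (SE; limma adjusted p = 0.819). STL 7 and control 4 were its lowest samples. Of the adipocyte markers, Adipoq, Plin1 and Lep were well above background on 0 of 8 arrays, while Cidec and Fabp4 were on 8.

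The terminal pathway showed no common direction, with 4 of 6 means higher in STL livers. C8g, the gamma chain of C8, had 6.74, 6.37, 7.21 and 6.98 in STL 5, 6, 7 and 8, against 6.58, 6.41 and 5.90 in control 1+2, 3 and 4. STL 6 lay under control 3 and control 1+2, and the log2 difference was 0.52 ± 0.23 (SE; limma adjusted p = 0.263), a fold of 1.44. C8a, the alpha chain, had 5.56, 5.56, 5.13 and 5.55 in STL 5, 6, 7 and 8, against 5.71, 5.29 and 4.93 in control 1+2, 3 and 4, with a log2 difference of 0.14 ± 0.195 (SE; limma adjusted p = 0.71). C8b, the beta chain, which lies next to C8a in the genome, had a difference of -0.083 ± 0.262 (SE; limma adjusted p = 0.882). The unadjusted 95% interval of C8g was 0.0017 to 1.05, and those of C8a and C8b included 0. C5, which starts the terminal pathway, had -2.80, -3.26, -3.43 and -3.42 in STL 5, 6, 7 and 8, against -3.15, -3.58 and -3.68 in control 1+2, 3 and 4. STL 5 was its highest sample and the groups overlapped, with a log2 difference of 0.25 ± 0.239 (SE; limma adjusted p = 0.585). C6, the next component of the pore, had 4.23, 4.18, 4.00 and 3.91 in STL 5, 6, 7 and 8, against 4.40, 4.30 and 3.68 in control 1+2, 3 and 4. The control range enclosed all its STL values, and its log2 difference was -0.05 ± 0.181 (SE; limma adjusted p = 0.897). C9, which forms the ring of the pore, had a log2 difference of 0.11 ± 0.195 (SE; limma adjusted p = 0.777).

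The complement regulators had positive differences, except that Cfi gave -0.23 under quantile normalization and turned sign without control 4 (-0.016) or without STL 7 (-0.0042). C4bpa, the alpha chain of C4b-binding protein, which disables C4b, had 7.55, 7.56, 7.81 and 7.57 in STL 5, 6, 7 and 8, against 7.54, 7.31 and 7.02 in control 1+2, 3 and 4. Its groups did not overlap after controls 1 and 2 were averaged, but the control 1 array alone, at 7.574, lay above STL 5, 6 and 8, and the gene had a log2 difference of 0.34 ± 0.153 (SE; limma adjusted p = 0.276). C4bpb, the beta chain, which binds protein S, had 7.09, 7.38, 7.33 and 7.25 in STL 5, 6, 7 and 8, against 7.24, 7.06 and 6.52 in control 1+2, 3 and 4, a log2 difference of 0.32 ± 0.181 (SE; limma adjusted p = 0.349). The chains differed by almost the same amount, and over the 7 samples the gap between them varied by 0.32 where each alone varied by 0.79 and 0.86. Cfi, factor I, the protease that degrades C3b and C4b, had 8.17, 8.30, 8.52 and 8.37 in STL 5, 6, 7 and 8, against 8.48, 8.24 and 8.14 in control 1+2, 3 and 4, a log2 difference of 0.057 ± 0.146 (SE; limma adjusted p = 0.853).

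All 6 genes of vitamin K-dependent proteins had the higher mean in STL livers, except that F2 gave -0.015 under quantile normalization and F7 -0.064 without control 4. Control 4 was the lowest sample of each. Proc, the anticoagulant protein C, had 7.57, 7.50, 7.66 and 7.63 in STL 5, 6, 7 and 8, against 7.44, 7.42 and 6.90 in control 1+2, 3 and 4. The groups did not overlap, and the log2 difference was 0.34 ± 0.158 (SE; limma adjusted p = 0.287), while its second probe gave 0.12. F9, factor IX, which activates factor X, had 6.21, 6.10, 6.22 and 6.24 in STL 5, 6, 7 and 8, against 6.19, 5.88 and 5.44 in control 1+2, 3 and 4. Control 1+2 lay among the STL values, and the log2 difference was 0.36 ± 0.171 (SE; limma adjusted p = 0.294). F2, prothrombin, had 9.18, 8.98, 9.49 and 9.17 in STL 5, 6, 7 and 8, against 9.05, 8.94 and 8.50 in control 1+2, 3 and 4, a log2 difference of 0.38 ± 0.187 (SE; limma adjusted p = 0.3). F7, factor VII, the partner of tissue factor, had 1.30, 1.25, 1.31 and 1.26 in STL 5, 6, 7 and 8, against 1.40, 1.29 and 0.68 in control 1+2, 3 and 4. The STL values were within 0.06 of each other while the control values spanned 0.72, and the log2 difference was 0.16 ± 0.17 (SE; limma adjusted p = 0.621). F10, factor X, and Pros1, protein S, the cofactor of protein C, had differences of 0.27 and 0.30 on the log2 scale, with SEs of 0.2 and 0.184. F7 and F10 are neighbours on rat chromosome 16 (rn4). The gap between them varied by 0.27 over the samples, where each alone varied by 0.72 and 0.90. Between other neighbours the gap varied by 1.25 (C8a and C8b), 0.75 (C2 and Cfb) and 0.63 (C1r and C1s). Gaps between genes that are not neighbours were not worked out, so no tie to position can be read from these values.

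F5, factor V, the cofactor of factor Xa, had 3.36, 2.97, 3.50 and 3.28 in STL 5, 6, 7 and 8, against 3.49, 2.90 and 3.15 in control 1+2, 3 and 4. Control 3, and not control 4, was its lowest sample, and the log2 difference was 0.099 ± 0.172 (SE; limma adjusted p = 0.772). F13b, the carrier subunit of the fibrin-crosslinking factor XIII, had 2.49, 2.56, 2.39 and 2.61 in STL 5, 6, 7 and 8, against 2.90, 2.83 and 2.01 in control 1+2, 3 and 4. It was the 1 coagulation gene with a negative difference, -0.065 ± 0.207 (SE; limma adjusted p = 0.882), and its highest values were in control 1+2 and control 3.

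The fibrinogen genes Fga, Fgb and Fgg, which encode the 3 chains of fibrinogen and lie together on rat chromosome 2 (rn4), varied in parallel. Fga had 8.56, 8.79, 9.02 and 8.47 in STL 5, 6, 7 and 8, against 8.95, 8.81 and 7.85 in control 1+2, 3 and 4. Fgb had 9.29, 9.40, 9.68 and 8.92 in STL 5, 6, 7 and 8, against 9.44, 9.22 and 8.62 in control 1+2, 3 and 4. Fgg had 8.57, 8.80, 9.07 and 8.52 in STL 5, 6, 7 and 8, against 8.97, 8.78 and 7.87 in control 1+2, 3 and 4. All 3 genes were highest in STL 7 and lowest in control 4, and STL 5 and STL 8 lay under control 1+2 in each. The gap between Fga and Fgg varied by 0.08 over the 7 samples, while Fga alone varied by 1.17 and Fgg by 1.20, so the parallel course was much closer than the spread of either gene. The gaps of Fgb to Fga and to Fgg varied by 0.36 and 0.34. The log2 differences were 0.17 ± 0.272, 0.23 ± 0.244 and 0.20 ± 0.27 (SE; limma adjusted p = 0.746, 0.614 and 0.707) for Fga, Fgb and Fgg. Fga probe B gave -0.17 in place of 0.17, so the sign of the Fga difference depended on the probe, and quantile normalization gave -0.09, -0.24 and -0.06 for Fga, Fgb and Fgg. The promoters of Fga and Fgb held the C/EBP letters and that of Fgg did not.

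**Figure D3:**
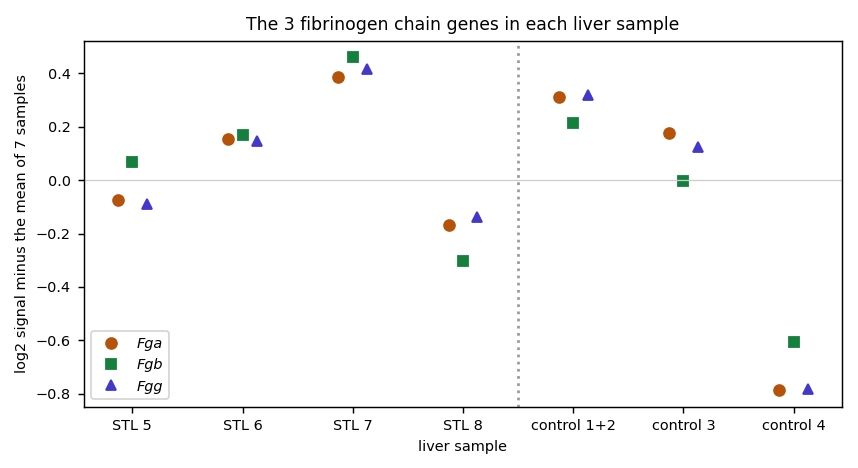
The normalised log2 signal of Fga, Fgb and Fgg, minus each gene's mean over the 7 samples, is on the vertical axis for each liver, with STL livers left of the dotted line and control livers right of it. The symbols of Fga and Fgg stay close to each other in every liver, and all 3 genes are lowest in control 4.

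The contact and kinin genes held the gene with the widest difference. Klkb1, plasma prekallikrein, which releases bradykinin from kininogen, had 5.73, 5.92, 5.79 and 5.65 in STL 5, 6, 7 and 8, against 5.65, 5.06 and 4.30 in control 1+2, 3 and 4. STL 8 and control 1+2 were level, the other STL samples lay above all controls, and the log2 difference was 0.77 ± 0.271 (SE; limma adjusted p = 0.205), a fold of 1.71 with a 95% interval of 0.15 to 1.39 on the log2 scale. Without control 4 the difference was 0.42. F12, factor XII, the starter of contact activation, had 8.17, 7.99, 8.46 and 8.24 in STL 5, 6, 7 and 8, against 8.07, 7.91 and 7.45 in control 1+2, 3 and 4, a log2 difference of 0.41 ± 0.184 (SE; limma adjusted p = 0.274). F11, factor XI, which lies beside Klkb1 on rat chromosome 16, had 3.63, 3.56, 3.15 and 3.39 in STL 5, 6, 7 and 8, against 3.57, 3.41 and 2.83 in control 1+2, 3 and 4. Its groups overlapped, with a log2 difference of 0.16 ± 0.193 (SE; limma adjusted p = 0.662), and the gap between F11 and Klkb1 varied by 1.18 over the samples, so these neighbours did not run in parallel as the fibrinogen genes did.

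Kng2, a kininogen gene by its name in the files, had 9.43, 9.34, 10.03 and 9.38 in STL 5, 6, 7 and 8, against 9.30, 9.19 and 8.96 in control 1+2, 3 and 4. Its groups did not overlap after controls 1 and 2 were averaged, although the control 2 array alone, at 9.354, lay above STL 6. STL 7 stood above the other 3 STL samples, and the log2 difference was 0.40 ± 0.201 (SE; limma adjusted p = 0.31), or -0.051 under quantile normalization. Other Kng2 probes gave 0.17 and 0.0064. Kng1 had a log2 difference of 0.24 ± 0.198 (SE; limma adjusted p = 0.511). Rat kininogens are near-identical copies, and RefSeq names the Kng1 probe Kng2 and the Kng2 probes Kng2l1, so which copy each value belongs to is uncertain.

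Of the fibrinolysis genes, Plg, plasminogen, the precursor of the fibrin-degrading plasmin, had 8.77, 8.66, 9.05 and 8.77 in STL 5, 6, 7 and 8, against 8.74, 8.62 and 8.17 in control 1+2, 3 and 4, a log2 difference of 0.30 ± 0.176 (SE; limma adjusted p = 0.364). Cpb2, the carboxypeptidase that slows fibrinolysis, had 4.90, 4.78, 4.87 and 5.06 in STL 5, 6, 7 and 8, against 5.18, 4.96 and 4.39 in control 1+2, 3 and 4. The control range enclosed all its STL values, with a log2 difference of 0.056 ± 0.182 (SE; limma adjusted p = 0.886). Vtn, vitronectin, which binds the terminal complement complex and the plasminogen activator inhibitor, had 8.76, 8.54, 9.01 and 8.70 in STL 5, 6, 7 and 8, against 8.66, 8.50 and 7.77 in control 1+2, 3 and 4. Control 4 stood apart from the other samples, and the log2 difference was 0.44 ± 0.227 (SE; limma adjusted p = 0.313). Hgfac, a factor XII-like protease that activates hepatocyte growth factor, had 5.24, 5.28, 5.42 and 5.42 in STL 5, 6, 7 and 8, against 5.38, 5.45 and 5.18 in control 1+2, 3 and 4. Its log2 difference was 0.0049 ± 0.115 (SE; limma adjusted p = 0.986), and its 95% interval was -0.26 to 0.27.

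Control 4 was the lowest of the 7 samples in 5 of 6 hepatocyte markers, all but Apoa1, and the highest in 4 of 5 cholangiocyte markers, all but Sox9. It was the highest in 5 of 6 stellate cell markers and the lowest in the other, Lrat, and the highest in 2 of 4 proliferation markers. Of the 5 endothelial markers tested, control 4 was the lowest in 2, Kdr and Vwf, and the highest in 0. Of the 7 macrophage markers, it was the lowest in 2 and the highest in 3. Over all genes tested, control 4 was the lowest in 30.3% and the highest in 19.0%. The 6 hepatocyte markers, Alb, Ttr, Apoa1, Tf, Serpina1 and Hnf4a, were all well above background on 8 arrays, and their centred median ranged -0.02 to 0.49 in STL livers and -0.50 to -0.04 in control livers, lowest in control 4. All 6 had the higher mean in STL livers, where 58.1% of all genes did, with a median difference of 0.32. Alb, Ttr, Tf and Serpina1 were highest in STL 7, Apoa1 in STL 5 and Hnf4a in control 1+2. All but Hnf4a had mean normalised log2 signals above 8, and the part of array brightness in the marker values was not tested. The centred median of the 5 cholangiocyte markers ranged -0.87 to 0.06 in STL livers and -0.02 to 1.502 in control livers, and that of the 6 stellate cell markers -0.45 to -0.01 in STL livers and -0.03 to 0.91 in control livers, both highest in control 4. The 4 proliferation markers ranged -1.01 to -0.40 in STL livers and -0.73 to 1.66 in control livers, high in control 3 and control 4. The 7 macrophage markers ranged -0.24 to 0.27 in STL livers and -0.01 to 0.03 in control livers. The 5 endothelial markers tested ranged -0.08 to 0.17 in STL livers and -0.09 to 0.02 in control livers, and 3 of the 5 had the higher mean in STL livers. Platelet markers, of which Pf4 and Gp9 were tested, ranged -0.68 to 0.26 in STL livers and 0.015 to 0.27 in control livers. No marker passed the test (limma, lowest adjusted p = 0.174), and the part of these cell types in the complement and coagulation values was not tested.

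**Figure D4:**
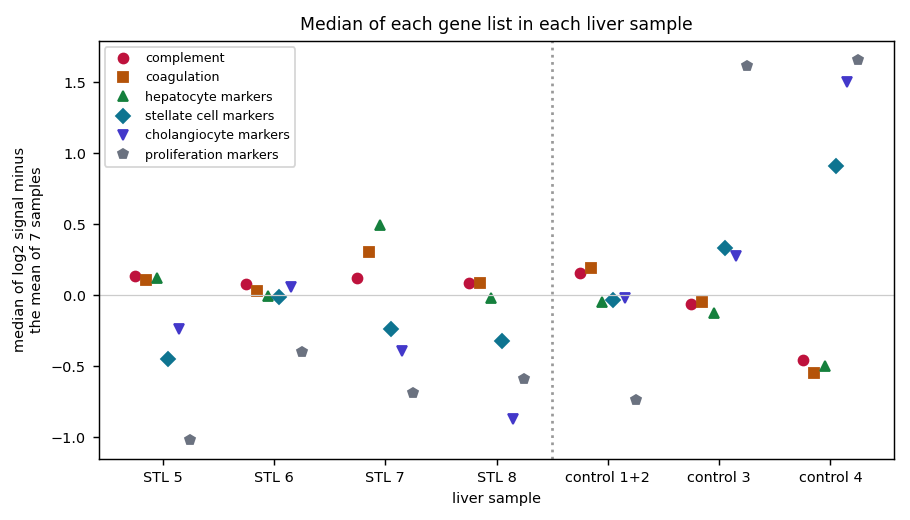
The vertical axis gives the median over each gene list of the log2 signal minus the gene's mean over 7 samples, for each STL liver left of the dotted line and each control liver right of it. Complement, coagulation and hepatocyte lists are lowest in control 4, where the cholangiocyte, stellate and proliferation lists are highest.

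Of 42 further genes of these pathways that are not among the 39, made partly by other cells, 37 were tested. The STL mean was the higher in 18 and the lower in 19, where 58.1% of all genes were higher. The median log2 difference was -0.0013. None passed the test (limma, lowest adjusted p = 0.172). At an unadjusted limma p under 0.05, 2 of the 37 were higher (11.6% of all genes) and 1 was lower (7.4% of all genes). All STL samples lay above all controls in 2 of the 37 (11.3% of all genes). These were Serpina5, the protein C inhibitor, and Hrg, the liver-made plasma histidine-rich glycoprotein. Their log2 differences were 0.47 ± 0.119 (SE; limma adjusted p = 0.172) and 0.44 ± 0.189 (SE; limma adjusted p = 0.254). In 1 of the 37 (5.63% of all genes) all STL samples lay below all controls, C1qc, a chain of C1q made by macrophages. Its log2 difference was -0.37 ± 0.118 (SE; limma adjusted p = 0.191). Among 8 transcription factors and receptors that act on hepatocyte genes, 7 had the higher mean in STL livers (58.1% of all genes did), with a median of 0.40. All STL samples lay above all controls in 4 of the 8 (11.3% of all genes), among them Foxa2, Cebpa and Il6r, with log2 differences of 1.34, 0.83 and 0.66. None of the 8 passed the test (limma, lowest adjusted p = 0.0982).

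The brightest genes were highest on the array with the least signal. In all 11 genes with a mean normalised log2 signal of 8 or more (C3, Cfi, F2, Fga, Fgb, Fgg, F12, Kng1, Kng2, Plg and Vtn), STL 7 was the highest sample, against 4 of the other 28, and STL 7 had the lowest 75th percentile of all arrays. Control 4 had the highest 75th percentile, 605 against 304 in STL 7. Before scaling, the processed signal of Kng2 spanned 1.097-fold over the 8 arrays, that of C3 1.23-fold and that of F2 1.28-fold. Unscaled, control 4 and STL 7 gave 301227 and 317221 for Kng2, 341854 and 328276 for C3, and 218666 and 219315 for F2. STL 7 was the lowest array before scaling in 3 of the 11 bright genes and in 24 of the 28 others. Quantile normalization between arrays gave a median difference of -0.05 for the 11 bright genes, with 3 of 11 higher in STL livers, and 0.11 for the others, with 19 of 28 higher. The part of array brightness in these values was not tested further.

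**Figure D5:**
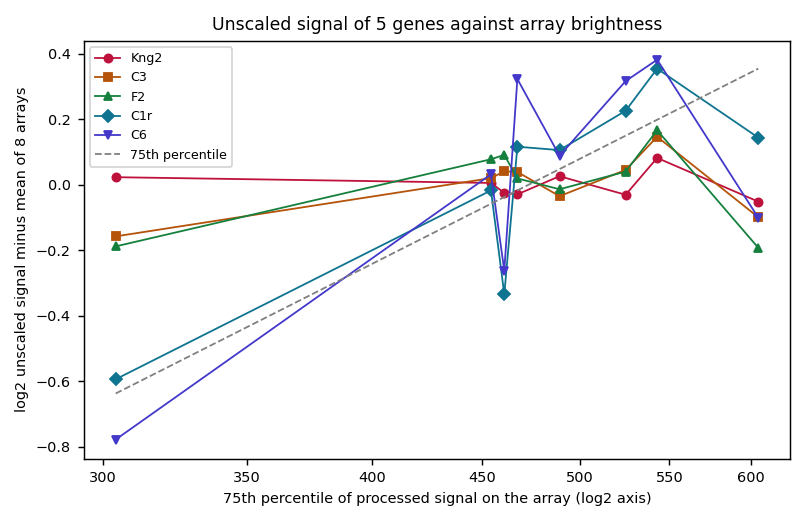
The log2 processed signal of 5 genes before scaling, minus each gene's mean over the 8 arrays, is on the vertical axis against the 75th percentile of the array on a log2 horizontal axis, where STL 7 is the leftmost array and control 4 the rightmost. The dashed line is the 75th percentile itself, and Kng2, C3 and F2 stay much flatter than it while C1r and C6 are low in STL 7.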

How the data were processed

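Per the labels' protocols, Cy3-labelled cRNA from total liver RNA was run on 1-colour Agilent arrays. The scanner files that the authors deposited hold spot intensity, made with Agilent Feature Extraction, version 11.5.1.1 per the file headers and 10.7 per the submitters' processing notes, and positions in build rn4, per the file headers. The 8 arrays were on 1 slide with 1 scan time, and 0 spots were saturated. The deposited series table holds intensity equal to the processed signal of an array times a constant. Its column medians were 42.1 to 48.9, with no centring, and 6 of its 8 columns held another array of the same group, and 0 an array of the other group, so the groups are settled and the rat numbers within them are not.

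Flagged spots and control spots were left out, spots of a probe averaged, and log2 of the processed signal taken minus the array's 75th percentile over the 45598 non-control probes (58717 spots). Probes were named through RefSeq accessions (23845 probes), symbols (5129) or synonyms (352), and 16272 kept the files' name. The 39 genes were matched by the files' names. A gene was represented by its brightest probe and was tested if that probe was well above background on 4 or more of the 8 arrays.

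Control 1 and control 2 were averaged because their ratio of differences to spot noise was under 1.5. The comparison used limma 3.58.1 (lmFit, eBayes with an intensity trend, two-sided, Benjamini-Hochberg, threshold 0.05) under R 4.3.3, after testing on simulated data. Files were read with Python 3.11.15, pandas 2.3.3 and numpy 2.4.6, and plots drawn with matplotlib 3.10.9. Alternatives were other scaling, background and filter settings, mean of probes, all arrays as samples, array weights, and leaving out each array or controls 1 and 2 together. Values per sample are given, by role, for the 3 genes with the smallest and the 1 with the largest p, and genes with groups that do not overlap or probes that differ in sign are named. The members, lists and this rule were chosen with earlier results of these data known. For 1 regulator gene and 1 promoter motif the result is not reported here.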

Additional observations from a re-analysis of the deposited data

Results flagged for a closer look

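In each of the 39 genes, the highest and lowest of the 4 STL samples were checked for a gap to the others that took most of the group's range. Chance gives such a gap in about 1 in 20 groups, and it was found in 5 genes. STL 7 was the sample apart in 3 of them. C8a had 5.13 in STL 7, under the 5.55 to 5.56 of the other STL samples. C4bpa had 7.81 in STL 7, over the 7.55 to 7.57 of the others, and Kng2 had 10.03, over the 9.34 to 9.43 of the others. C1r had 4.93 in STL 8, under the 5.27 to 5.29 of the other STL samples. Mbl2 had 1.79 in STL 5, over the 1.37 to 1.41 of the others.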

How the results depend on the processing

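Every alternative was run for all 39 genes, and in 21 alternative settings none of them reached an adjusted p under 0.05 (limma, lowest 0.0533). Their sign was kept throughout in 18 genes and turned in at least 1 setting in 21. Other filters, no intensity trend and each probe as its own feature left the log2 differences unchanged, so these settings could not turn a sign. The count over all genes was 21 with every array as its own sample, 1582 with array weights and 201 without controls 1 and 2. Leaving out 1 array gave 1 to 45. Quantile normalization moved the median of the complement genes to 0.051 and of the coagulation genes to 0.021. Leaving out 1 array gave 0.0099 to 0.27 and 0.080 to 0.33, lowest without control 4. With controls 1 and 2 left out together, the medians were 0.41 and 0.42. Signs turned under quantile normalization in C3 (-0.092), C9 (-0.11), Cfi (-0.23), F2 (-0.015), Fga (-0.089), Fgb (-0.24), Fgg (-0.060), Kng1 (-0.053), Kng2 (-0.051), Cpb2 (-0.072) and Hgfac (-0.13), and with array weights in C9 (-0.041), Fga (-0.11), Fgb (-0.0032), Fgg (-0.062), Cpb2 (-0.0013) and Hgfac (-0.053). The other settings turned Hgfac with the median as scale (-0.040) and with normexp (-0.042), Cpb2 (-0.028) and Hgfac (-0.0064) with all 8 arrays as samples or with the slide column as a block, C1r (0.00025) and C2 (0.030) in the series table's values, and C1r (0.029), C2 (0.046), C6 (0.086) and F13b (0.093) without controls 1 and 2. Leaving out 1 array gave ranges that crossed 0 for C1r -0.15 to 0.044, C2 -0.11 to 0.047, Cfd -0.050 to 0.26, C6 -0.27 to 0.038, C8a -0.048 to 0.25, C8b -0.22 to 0.17, C9 -0.095 to 0.18, Cfi -0.016 to 0.12, F7 -0.064 to 0.24, F5 -0.039 to 0.20, F13b -0.35 to 0.062, Fga -0.17 to 0.31, Fgb -0.0066 to 0.36, Fgg -0.14 to 0.31, F11 -0.059 to 0.25, Cpb2 -0.17 to 0.11, Hgfac -0.076 to 0.063. The cause of these turns was not tested. The replicate numbers do not pair the groups, but each slide column held 1 array of each group, and with that column as a block 1 gene and 0 of the 39 were called.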

Other observations

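A probe that the files list under an Ensembl transcript name and that RefSeq places in Mbl2 was not among the 51 probes, since its name did not match. Its log2 difference, STL minus control, was 0.61 ± 0.241 (SE; limma adjusted p = 0.235), of the same sign as the 0.50 of the named Mbl2 probe. It was much the brighter, with STL and control means of 6.32 and 5.71, against 1.50 and 1.00 for the named probe. The Mbl2 values per sample given above are therefore those of the dimmer probe. Probes that the files name Kng1l1 and that RefSeq places in Kng1 were also not among the 51, and gave 0.24, 0.38 and 0.16. The 0.38 probe shares most of its bases with the brightest Kng2 probe, and the 0.24 probe part of its bases with the Kng1 probe. They may therefore read the same transcripts.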
